A study of Homo sapiens with 6 samples.

Results

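The genes described here are the host genes of small nucleolar RNAs (snoRNAs) in the gene table of a methylglyoxal (MGO) experiment. They were taken by name, under a rule chosen with earlier results of these data known. The rule took every row named SNHG followed by a number, together with GAS5, ZFAS1, EPB41L4A-AS1, TAF1D and DANCR. It found 34 of the 63643 rows of the table, and 31 of these had enough counts to be tested. All cells were HEK293T, an established human embryonic kidney line, and all were labelled as deleted for GLO1, the first enzyme of MGO clearance. The group MGO (3 libraries) received 60 µM MGO for 4 h per the treatment protocol, and the group Control (3 libraries) was left untreated. The MGO library names carry another number, not explained in the labels, so the dose rests on the protocol alone. The untreated cells carry the same label, so no comparison with cells that keep the gene can be made here, and the labels do not say whether the deleted line is 1 clone. The study asked whether MGO changes transcription in the way that the integrated stress response does.

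Most snoRNAs of human cells are not transcribed from genes of their own. They lie in introns of host genes and are released when the host transcript is spliced. Box C/D snoRNAs guide ribose methylation and box H/ACA snoRNAs guide pseudouridylation of ribosomal RNA, while the related scaRNAs guide the same changes on small nuclear RNAs in Cajal bodies. Many hosts encode no protein, and their spliced RNA is known to be short lived because ribosomes engage it and nonsense-mediated decay (NMD) then degrades it. Several hosts start with a 5′ terminal oligopyrimidine tract, the C followed by pyrimidines that also opens ribosomal protein mRNAs and links them to growth control.

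The start regions of 9 host genes follow, because they include the start tract that the family is known for and the most strongly raised members with a promoter entry. Each runs from 40 bases before to 20 bases after the start of its RefSeq promoter entry (GRCh38.p14). All read 5′ to 3′ on the gene's own strand. Capitals mark TATAA within the 40 bases before the start and a tract of C followed by at least 4 pyrimidines at the start itself. None of these stretches overlaps an exon of a protein-coding transcript of GENCODE 29.
ZFAS1: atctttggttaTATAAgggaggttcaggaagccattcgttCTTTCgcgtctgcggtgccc
SNHG12: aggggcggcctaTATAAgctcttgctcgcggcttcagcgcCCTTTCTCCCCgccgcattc
SNHG19: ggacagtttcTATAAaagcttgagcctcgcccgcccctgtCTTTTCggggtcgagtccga
SNHG5: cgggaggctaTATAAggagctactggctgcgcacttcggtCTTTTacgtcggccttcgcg
SNHG7: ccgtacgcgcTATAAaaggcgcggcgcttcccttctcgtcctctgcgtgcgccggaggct
SNHG8: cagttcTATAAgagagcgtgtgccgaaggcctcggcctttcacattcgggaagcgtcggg
SNHG1: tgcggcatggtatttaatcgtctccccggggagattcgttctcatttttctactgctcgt
SNHG17: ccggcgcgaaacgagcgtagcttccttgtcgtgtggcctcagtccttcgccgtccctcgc
EPB41L4A-AS1: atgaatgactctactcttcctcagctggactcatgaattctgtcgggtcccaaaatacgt

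These windows lie at chr20:49278602-49278661 (plus strand, ZFAS1), chr1:28581854-28581913 (minus, SNHG12), chr16:2155339-2155398 (minus, SNHG19), chr6:85678714-85678773 (minus, SNHG5), chr9:136728165-136728224 (minus, SNHG7), chr4:118278722-118278781 (plus, SNHG8), chr11:62855866-62855925 (minus, SNHG1), chr20:38435309-38435368 (minus, SNHG17) and chr5:112160486-112160545 (plus, EPB41L4A-AS1). ZFAS1, SNHG12, SNHG19 and SNHG5 show both features, with TATAA beginning 28 to 30 bases before the start. For ZFAS1 and SNHG12 this start lies inside the gene, downstream of the outermost RefSeq start (49278178 and 28582983). The features of ZFAS1 and SNHG12 thus belong to an inner start. SNHG7 and SNHG8 show TATAA alone, and SNHG1, SNHG17 and EPB41L4A-AS1 show neither. The tract was read at the annotated start base only, so a start a few bases away can gain or lose it. SNHG7, for example, had 4 pyrimidines from that base, where 5 were needed.

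Of the 34 members, 30 had a promoter entry. The start tract was present in 8 of them (26.7%: ZFAS1, SNHG12, SNHG19, SNHG5, SNHG4, SNHG18, SNHG32 and TAF1D), against 5.14% of the 27305 genes in the promoter table. TATAA in the 40 bases before the start, on the gene's strand, was present in 6 members (20%) against 5.47% of all genes. Both features stood together in 4 members (13.3%) against 0.139% of all genes. The search for TATAA was chosen after the sequences had been read. Over the full 300 bases of each promoter and both strands, CACGTG was found in 2 members (6.7%, SNHG7 and SNHG30) against 8.77% of all genes, and TATAAA, which overlaps TATAA, in 4 members (13.3%) against 14%. TGACGTCA, TGATGNAA and TGANTCA were found in 0 of the 30 members and in 2.25%, 4.46% and 9.37% of all genes. Among the 13448 tested genes with a promoter entry, the tract had a share of 6.64%, TATAA before the start 4.78% and both together 0.208%. There CACGTG had 11.7%, TATAAA 9.52%, TGACGTCA 3.47%, TGATGNAA 2.93% and TGANTCA 7.45%. A match is only a run of letters and is not a shown binding site.

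Total counts per library lay between 117427883 and 157639431. The share of counts on mitochondrial genes was 13.6% in MGO and 5.42% in Control on average, and its part in the changes below was not tested. GLO1 itself had counts in all 6 libraries (101.8 ± 4.53 CPM in MGO and 37.3 ± 0.885 in Control), and as the deleted stretch is not named in the labels, these counts check neither deletion nor labels. Whether the replicates are separate cultures is not stated, so the p-values rest on the spread between these libraries only, and that spread may be technical.

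In MGO 28 of the 31 tested host genes were raised and 2, SNHG4 and SNHG31, were lowered, while SNHG22 did not pass the threshold (edgeR quasi-likelihood test, Benjamini-Hochberg adjusted p under 0.05 over all genes tested). The table as a whole moved widely. Of the 23109 genes tested 79.3% were called, 38.8% as raised and 40.5% as lowered, so the members differ from the table in direction (90.3% raised) more than in the share called. Their median log2 fold change was 1.72, beside -0.02 over all genes tested. At least 2-fold rises were found in 27 members (87.1%) and in 20.9% of all genes tested. Rises of at least 4-fold were found in 10 members (32.3%, against 4.44%), and of at least 8-fold in SNHG15, EPB41L4A-AS1, SNHG17 and SNHG1 (against 1.18%). The MGO and Control libraries did not overlap for 30 of the 31 members, and for 81.5% of all genes tested.

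CPM, the count of a gene scaled to a common library size, is used throughout for levels, with library sizes scaled by TMM, a method that sets the bulk of genes to no change. Without this scaling, by library size alone, the median of all genes moved by -0.52 on the log2 scale and raised genes made up 30.6% of the calls (5673 raised, 12885 lowered) in place of 48.9%. Of the members, 27 were then raised and 3 lowered. As a share of all counts, the host genes together took 0.303 ± 0.00617% in MGO and 0.0961 ± 0.00483% in Control (SD, n = 3). In these bulk samples, fewer cells with a transcript and less of it per cell cannot be told apart.

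Of 8 markers listed for this line, KRT8, KRT18, KRT19 and VIM had means of 91.2 CPM or more in both groups and were raised (log2 fold changes of 0.89 to 1.87), NEFL (67.5 CPM in Control), PAX2 (6.59) and NEFM (1.46) were lowered, and LHX1 (0.975) did not pass. Of 5 fibroblast markers, COL1A1 was lowered (13.9 CPM in Control, log2 fold change -1.70), LUM was raised (0.729 CPM in Control, 0.63), and PDGFRB, DCN and COL1A2 had 91, 23 and 7 counts in all. Of 5 blood markers, LYZ and SPI1 were raised on 119 and 153 counts in all (2.56 and 0.99), and PTPRC, CD3E and HBB had 33, 5 and 0 counts. By library size alone LUM and SPI1 did not pass (0.10 and 0.47), and with the trend over transcript length, gene span and GC content removed COL1A1 had -0.66 and SPI1 did not pass (0.45). The part of these shifts in the results was not tested.

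**Figure D1:**
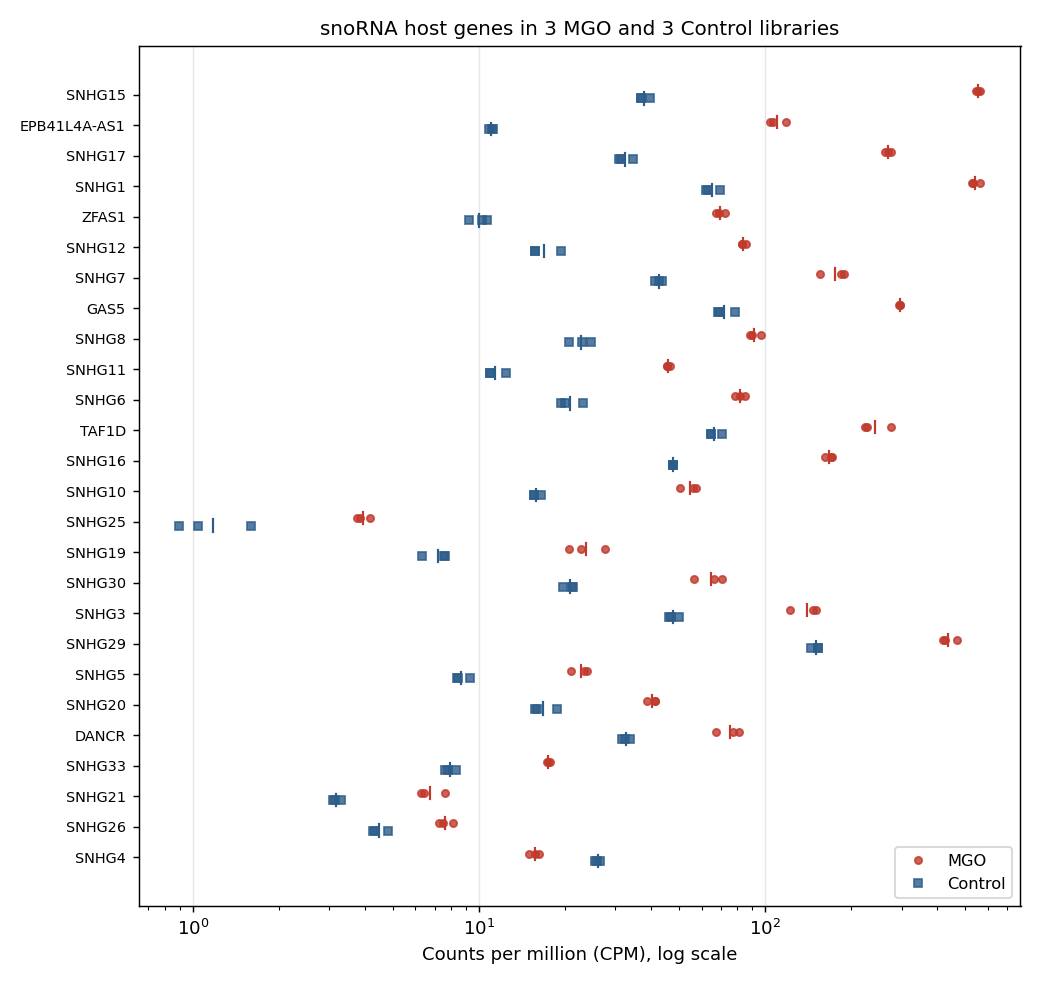
Level of the 26 host genes with a mean of at least 1 CPM in each library (horizontal log axis, CPM; circles, 3 MGO libraries; squares, 3 Control libraries; vertical ticks, group means), ordered by fold change. In 25 of them every MGO library lies above every Control library; SNHG4, at the bottom, has the reverse order.

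Among the hosts of box C/D snoRNAs all 16 members were raised (median log2 fold change 1.74). GAS5 (chromosome 1, 173863900 to 173868882, minus strand), a noncoding gene first described by its rise in growth-arrested cells, holds 11 snoRNA genes in RefSeq. It stood at 293, 295 and 297 CPM in the MGO libraries and at 78.5, 68.4 and 69.0 CPM in the Control libraries. The MGO values lie almost on one another, and the spread is in Control. The log2 fold change was 2.04 (SE 0.07, adjusted p = 1.27e-10), a 4.10-fold rise.

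SNHG1 (chromosome 11, 62851988 to 62855914, minus strand) holds 8 box C/D snoRNA genes, SNORD22 and SNORD25 to SNORD31. Its values were 565, 529 and 534 CPM in MGO and 69.7, 62.2 and 63.4 CPM in Control, with replicate 1 the highest of each group. The rise was 8.33-fold (log2 fold change 3.06, SE 0.07, adjusted p = 1.38e-11). ZFAS1 (chromosome 20, 49278178 to 49295738, plus strand) is transcribed away from the start of ZNFX1 and holds SNORD12, SNORD12B and SNORD12C. It had 67.5, 72.3 and 69.0 CPM in MGO against 10.7, 9.21 and 10.2 CPM in Control, a log2 fold change of 2.80 (SE 0.07, adjusted p = 3.15e-11). Both genes thus left a narrow Control range for a narrow MGO range with no overlap.

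Box C/D and box H/ACA snoRNAs occur side by side in SNHG12, TAF1D and GAS5. SNHG12 (chromosome 1, 28578538 to 28583132, minus strand) holds SNORD99 and 3 box H/ACA genes. Its MGO libraries had 82.9, 86.0 and 83.1 CPM and its Control libraries 19.4, 15.7 and 15.7 CPM (log2 fold change 2.31, SE 0.09, adjusted p = 2.18e-10). TAF1D (chromosome 11, 93729948 to 93784391, minus strand) is the member with a well-known protein, a subunit of the SL1 complex that starts transcription of ribosomal RNA genes by RNA polymerase I. It holds 8 snoRNA genes, and GENCODE 29 marks 7 of its transcripts as NMD targets. It reached 275, 228 and 224 CPM in MGO, with replicate 1 above the others, against 70.7, 64.5 and 64.5 CPM in Control (a log2 fold change of 1.86, SE 0.09, adjusted p = 1.02e-09).

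SNHG29 (chromosome 17, 16438822 to 16478678, plus strand) was the most abundant host per base in Control and holds SNORD49A, SNORD49B and SNORD65. It had 418, 469.8 and 424 CPM in MGO and 153, 144 and 153 CPM in Control (a log2 fold change of 1.54, SE 0.07, adjusted p = 6.55e-10). SNHG16 (chromosome 17, 76557766 to 76565348, plus strand), host of SNORD1A, SNORD1B and SNORD1C, went from 47.9, 47.6 and 47.5 CPM in Control to 171, 169 and 162 CPM in MGO (log2 fold change 1.81, SE 0.06). Its Control libraries were the tightest among the 26 members with at least 1 CPM. SNHG6 (chromosome 8, 66921684 to 66926398, minus strand), host of SNORD87, had 81.6, 85.1 and 78.6 CPM in MGO and 23.1, 19.4 and 19.9 CPM in Control (a log2 fold change of 1.98, SE 0.08).

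SNHG30, SNHG19 and SNHG5 hold 1 or 2 box C/D genes each. SNHG30 (chromosome 17, 35568109 to 35574843, plus strand; SNORD7) had 56.4, 70.8 and 66.3 CPM in MGO and 21.2, 19.7 and 21.3 CPM in Control. SNHG19 (chromosome 16, 2154797 to 2155358, minus strand; SNORD60) had 20.7, 27.6 and 22.7 CPM in MGO and 7.54, 6.33 and 7.64 CPM in Control. SNHG5 (chromosome 6, 85660950 to 85678748, minus strand; SNORD50A and SNORD50B) had 23.9, 20.9 and 23.3 CPM in MGO and 9.29, 8.35 and 8.42 CPM in Control. None of these 3 showed an overlap between groups, and their log2 fold changes were 1.64, 1.72 and 1.39 (SE 0.09, 0.11 and 0.08).

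SNHG26 and SNHG25 had low levels among the members with at least 1 CPM, with means of 6.05 and 2.55 CPM over all libraries. SNHG26 (chromosome 7, 22854178 to 22861579, plus strand; SNORD93) had 7.28, 7.50 and 8.12 CPM in MGO against 4.81, 4.26 and 4.34 CPM in Control. This 1.71-fold rise (log2 fold change 0.77, SE 0.09, adjusted p = 3.62e-06) was the smallest of the raised members, and it fell to 0.14 (adjusted p = 0.135) when the trend on transcript length, span and GC content was taken out. SNHG25 (chromosome 17, 64145970 to 64146476, plus strand; SNORD104) had 3.75, 3.85 and 4.17 CPM in MGO and 1.59, 1.04 and 0.893 CPM in Control (a log2 fold change of 1.75, SE 0.18). Control replicate 1 stood above its group in both genes.

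Below 1 CPM on average, 3 box C/D hosts were raised with wide errors. SNHG14 (chromosome 15, 24978583 to 25419462, plus strand), the long imprinted transcript that carries 83 box C/D genes including the SNORD116 cluster, had only 0.19 ± 0.048 CPM in MGO and 0.0602 ± 0.00894 CPM in Control (a log2 fold change of 1.66, SE 0.33, adjusted p = 0.000585). SNHG32 (chromosome 6, 31834608 to 31839766, plus strand; SNORD48 and SNORD52) had 1.38 ± 0.288 and 0.46 ± 0.0141 CPM (log2 fold change 1.59, SE 0.17). SNHG18 (chromosome 5, 9546200 to 9550609, plus strand; SNORD123) had 0.231 ± 0.0539 and 0.0986 ± 0.0294 CPM (log2 fold change 1.22, SE 0.31, adjusted p = 0.00349). With library size alone the SNHG18 value was 0.69 and no longer passed (adjusted p = 0.0573).

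Hosts of box H/ACA snoRNAs covered the full range of responses. Of 14 tested, 12 were raised and 2 lowered, with a median log2 fold change of 2.01. SNHG15 (chromosome 7, 44983023 to 44986961, minus strand), host of SNORA9, showed the largest change of any member. Its values were 553, 566 and 547 CPM in MGO and 39.6, 36.8 and 37.0 CPM in Control, a 14.7-fold rise (log2 fold change 3.88, SE 0.07, adjusted p = 3.79e-12). Among all genes tested, 99.6% had a smaller log2 fold change.

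EPB41L4A-AS1 (chromosome 5, 112160526 to 112164276, plus strand), host of SNORA13, had 104, 118 and 107 CPM in MGO and 11.2, 10.8 and 11.1 CPM in Control. Its log2 fold change was 3.31 (SE 0.07, adjusted p = 1.07e-11), and at 2969 nt it has the longest median transcript of the members. SNHG17 (chromosome 20, 38420588 to 38435353, minus strand) holds 4 copies of the SNORA71 family and had 276, 269 and 263 CPM in MGO against 34.7, 30.8 and 31.4 CPM in Control (a log2 fold change of 3.06, SE 0.07). Its neighbour SNHG11 (chromosome 20, 38446578 to 38450921, plus strand), which holds SNORA71E and SNORA60, had 45.3, 46.7 and 45.3 CPM in MGO and 12.4, 10.9 and 10.9 CPM in Control (a log2 fold change of 2.00, SE 0.07). Both neighbours were raised without overlap between groups.

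SNHG7, SNHG8, SNHG3 and DANCR hold 1 or 2 box H/ACA genes each. SNHG7 (chromosome 9, 136721366 to 136728184, minus strand; SNORA17A and SNORA17B) had 155, 189 and 184 CPM in MGO and 43.6, 41.2 and 42.6 CPM in Control. SNHG8 (chromosome 4, 118278709 to 118279823, plus strand; SNORA24) had 89.9, 96.9 and 88.6 CPM in MGO against 24.7, 20.6 and 22.9 CPM in Control. Their log2 fold changes were 2.05 and 2.02 (SE 0.08 for each), and neither showed an overlap between groups. SNHG3 (chromosome 1, 28505980 to 28510892, plus strand) holds SNORA73A and SNORA73B, which take part in cutting the ribosomal RNA precursor and are not mainly modification guides. It had 122, 151 and 147 CPM in MGO and 46.2, 47.0 and 50.1 CPM in Control (a log2 fold change of 1.55, SE 0.08). SNHG3 overlaps the coding gene RCC1 on the same strand, with starts 37 bp apart, so their reads can be hard to tell apart.

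DANCR (chromosome 4, 52712404 to 52720351, plus strand), host of SNORA26 and known as a noncoding RNA that holds progenitor cells undifferentiated, had 67.5, 81.1 and 77.1 CPM in MGO and 33.6, 31.7 and 32.3 CPM in Control. Its log2 fold change was 1.21 (SE 0.08, adjusted p = 1.27e-08), and 0.64 with the length, span and GC trend removed. SNHG33 (chromosome 3, 183447608 to 183456013, plus strand; SNORA63D and SNORA63E) had 17.3, 17.4 and 17.7 CPM in MGO and 8.30, 7.79 and 7.6 CPM in Control (a log2 fold change of 1.14, SE 0.07). For both genes every MGO library lay above every Control library.

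The lowered members were both box H/ACA hosts. SNHG4 (chromosome 5, 139274102 to 139284899, plus strand), host of SNORA74A and SNORA74D, had 15.7, 15 and 16.2 CPM in MGO against 26.5, 25.5 and 25.9 CPM in Control. Its log2 fold change was -0.73 (SE 0.07, adjusted p = 4.1e-07), a level 1.66-fold higher in Control. It was the only one of the 26 members with at least 1 CPM to be lowered, and the value was -1.34 with the length, span and GC trend removed. SNHG4 overlaps the coding gene MATR3 on the same strand, and the starts of both lie 350 bp apart, so their reads can be hard to tell apart. MATR3 itself had 514 ± 71.9 CPM in MGO and 637 ± 7.88 in Control (a log2 fold change of -0.31, SE 0.09, adjusted p = 0.00608), a call lost under upper quartile scaling (-0.14, adjusted p = 0.162).

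SNHG31 (chromosome 2, 214810229 to 214963274, plus strand; SNORA70I) was rare, at 0.418, 0.301 and 0.262 CPM in MGO and 0.463, 0.767 and 0.921 CPM in Control. The lowest Control library was just above the highest MGO library. The log2 fold change was -1.14 (SE 0.27, adjusted p = 0.00176).

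Hosts of scaRNAs were the smallest class. Of 4 tested, 3 were raised, with a median log2 fold change of 1.18. SNHG10 (chromosome 14, 95532297 to 95534872, minus strand; SCARNA13) had 50.6, 57.5 and 56.1 CPM in MGO and 15.6, 15.6 and 16.5 CPM in Control (a log2 fold change of 1.78, SE 0.07). SNHG20 (chromosome 17, 77086716 to 77099902, plus strand; SCARNA16) had 38.6, 41.2 and 41.2 CPM against 18.7, 15.7 and 15.9 CPM (log2 fold change 1.27, SE 0.08). SNHG21 (chromosome 15, 82750564 to 82757206, plus strand; SCARNA15) had 6.44, 7.59 and 6.27 CPM against 3.10, 3.13 and 3.29 CPM (log2 fold change 1.09, SE 0.10). Groups did not overlap in any of the 3, but no test of scaRNA hosts against the other hosts was made.

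SNHG22 (chromosome 18, 49814023 to 49851059, plus strand; SCARNA17) was the member that did not pass. Its values were 0.327, 0.363 and 0.349 CPM in MGO and 0.4, 0.312 and 0.317 CPM in Control, so the groups overlapped. The log2 fold change was 0.02 (SE 0.20, adjusted p = 0.918), and it turned to -0.50 (adjusted p = 0.034) with library size alone. SNHG9, SNHG27 and SNHG28 had 1, 1 and 3 counts over all 6 libraries, all of them in Control, and were not tested. SNHG27 and SNHG28 are also the members with no snoRNA gene inside their RefSeq span. Genes that most cells use were near 0 in this table as well, such as FBL with 7 counts, so such values are not read as absent expression.

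**Figure D2:**
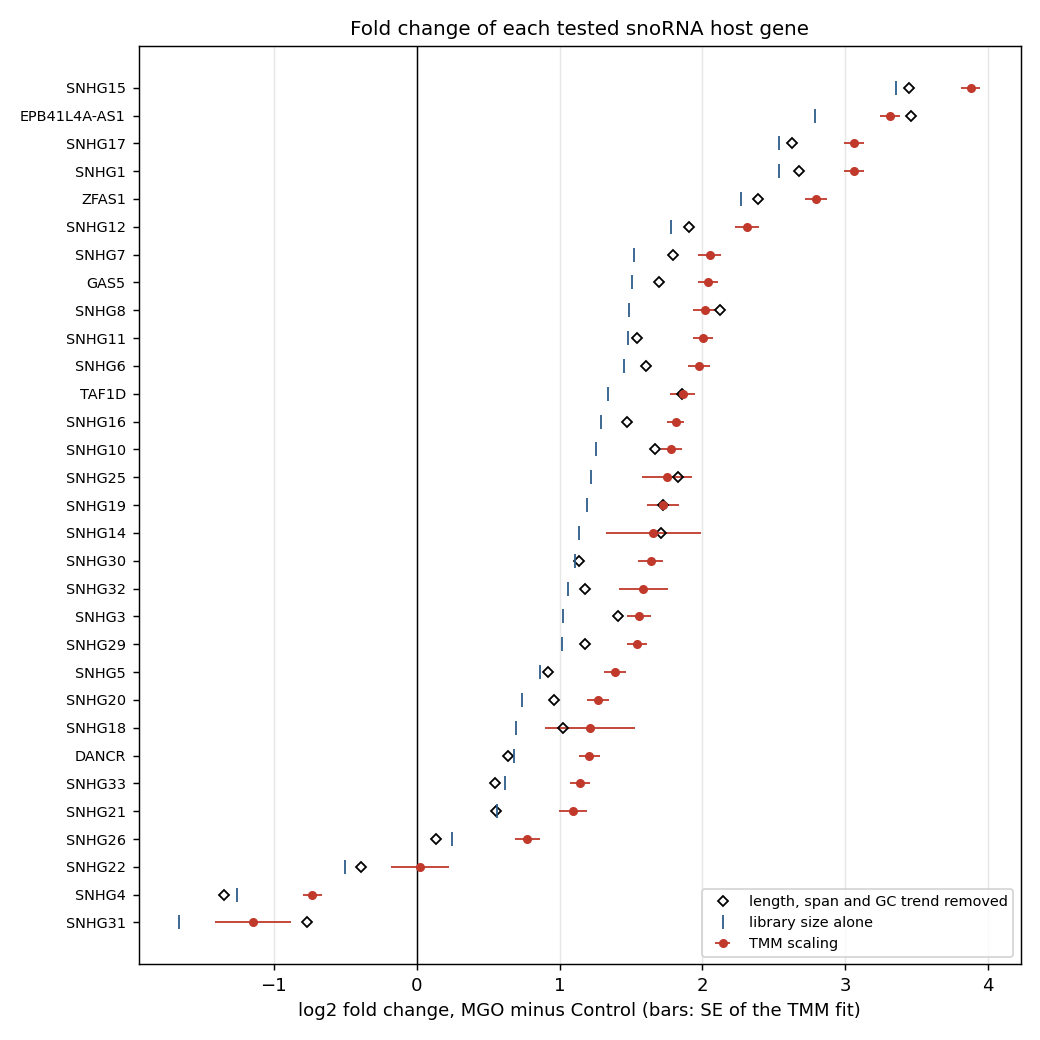
Log2 fold change (MGO minus Control, horizontal axis) of the 31 tested host genes with the TMM scaling used here (circles with bars of 1 SE), with library size alone (vertical ticks) and with the trend on length, span and GC content removed (diamonds). Of the 31 circles, 28 lie to the right of 0 and pass the threshold, and SNHG22 is the gene whose side changes between the fits.

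The position of a library within its group was not even across members. Over the 26 genes with at least 1 CPM, Control replicate 1 was the highest Control library for 20, and MGO replicate 2 was the highest MGO library for 16. None of these shifts closed the gap between the groups in these genes. Leaving out each library in turn left the counts at 28 raised and 2 lowered members in all 6 fits. Standard errors of the log2 fold change in these 26 genes lay between 0.06 and 0.18.

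Dividing each level by the median transcript length gives CPM per kb, on which genes can be compared. In Control the order was SNHG29 (163 ± 5.45), GAS5 (120 ± 9.46), SNHG1 (84.9 ± 5.30), SNHG17 (49.8 ± 3.20), SNHG8 (48.3 ± 4.37), DANCR (43.5 ± 1.30) and SNHG15 (39.6 ± 1.63), where the SDs of SNHG17 and SNHG8 overlapped, as did those of SNHG8 and DANCR. In MGO it was SNHG1 (707 ± 25.7), SNHG15 (583 ± 9.89), GAS5 (493 ± 2.73), SNHG29 (473 ± 30.7) and SNHG17 (416 ± 10.4), where the SDs of GAS5 and SNHG29 overlapped. SNHG15 thus moved from rank 7 to rank 2 and SNHG29 from rank 1 to rank 4. EPB41L4A-AS1 moved from rank 26 to 18, ZFAS1 from 17 to 11, and the lowered SNHG4 from 10 to 23. The 6 genes SNHG15, SNHG1, SNHG29, GAS5, SNHG17 and TAF1D held 64.3% of the summed CPM of the members in MGO and 52.9% in Control.

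Fold changes in this table followed transcript length, and host transcripts are short. Median transcript lengths of the tested members ran from 278 nt (SNHG25) to 2969 nt (EPB41L4A-AS1). Below 1000 nt, all 18 members were raised with a median log2 fold change of 1.86. The 5470 genes of that length had a median of 0.53, with 49.0% raised. From 1000 to 2000 nt, 6 of 9 members were raised and 2 lowered (66.7% and 22.2%), beside 54.9% and 24.7% of all genes there. The members' median was 1.22, beside 0.47 for all, the latter -0.06 under library size alone. From 2000 to 4000 nt all 4 were raised, beside 33.9% of all genes there. The members' median was 1.96, beside -0.14 for all, the latter 0.04 under upper quartile scaling. No member was longer, where the median of all genes was -1.16. With the trend on length, span and GC content removed, 27 members stayed raised and 2 lowered, and the members' median was 1.54 while that of all genes shifted by 0.15.

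**Figure D3:**
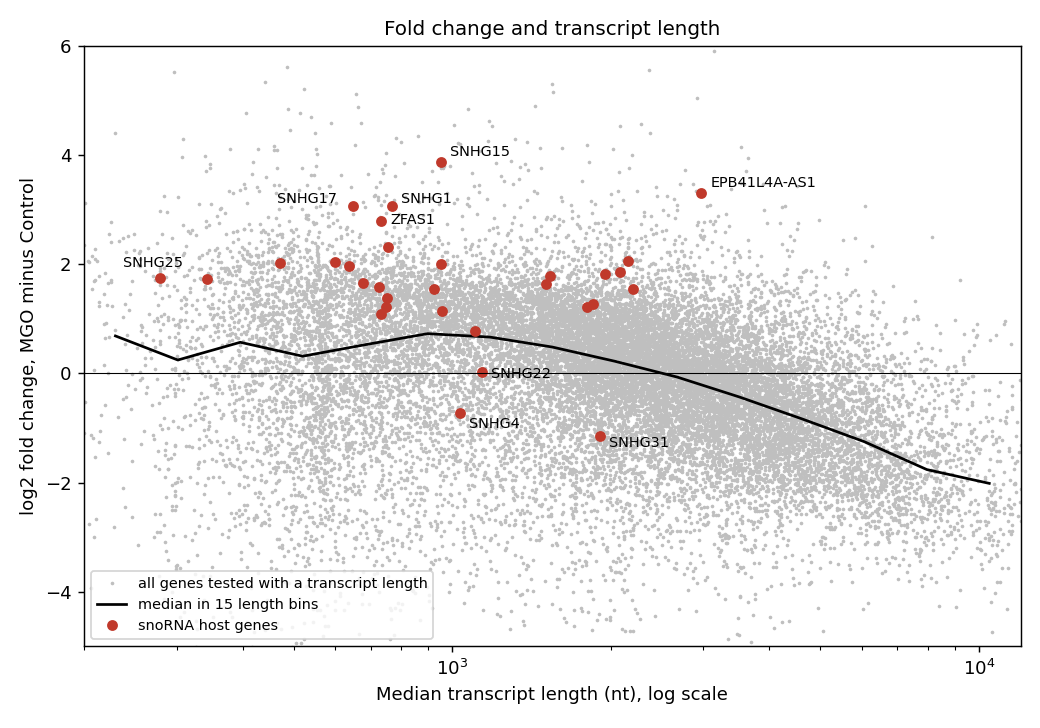
Log2 fold change (MGO minus Control) against median transcript length in nt (log axis) for the genes with a known length (grey), the median in 15 length bins (black line) and the 31 tested host genes (red). The axes leave out 660 of 21794 genes. The line falls from above 0 below 1000 nt to below 0 above 4000 nt, and the 28 raised host genes all lie above 0, with EPB41L4A-AS1 far above the line at its length of 2969 nt.

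Other long noncoding genes gave another reference. Those with at least 1 CPM had a median transcript length of 1260 nt, beside 938 nt for the members at that level. These 1225 genes had a median log2 fold change of 0.16, with 571 raised and 441 lowered, and this median turned to -0.36 under library size alone. Those below 1000 nt numbered 511 and had a median of 0.57. Named hosts of another small RNA class, the microRNA host genes, had 33 tested members with 14 raised, 10 lowered and a median of 0.13 (-0.39 under library size alone). MIR181A1HG, host of miR-181 genes, had the largest rise (log2 fold change 4.14, SE 0.13) and MIR600HG the largest fall (-2.92, SE 0.13), with MIR663AHG at 2.06 and MIRLET7IHG at -2.71 next to them.

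The features of the start region were set beside the fold changes, as a description. The 8 members with the tract at the annotated start base, all tested, had a median log2 fold change of 1.66 (7 raised, SNHG4 lowered). The 20 tested members with a promoter entry and without the tract had a median of 1.65 (18 raised). Members with TATAA (SNHG5, SNHG7, SNHG8, SNHG12, SNHG19 and ZFAS1) had a median of 2.03 and those without it 1.57, with no test. As the sequences above show, strong rises occurred with both features (ZFAS1, SNHG12) and with neither (SNHG1, SNHG17, EPB41L4A-AS1). Over all genes tested, 28 had both features, 75.0% of these were raised and their median was 1.08; the 4 members are among them.

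RefSeq places 157 snoRNA and scaRNA genes inside the spans of 32 members, 83 of them in SNHG14. PolyA selection is not made to capture these short RNAs, which carry no polyA tail. Of the 146 with a row in the table, 17 had any count and 9 were tested. Of these 7 were raised and 2 did not pass, and with library size alone, or with the length trend removed, 5 were raised and 1, SNORD104, was lowered, SNORA74A and SNORD93 no longer passing. With upper quartile scaling 8 were raised, SNORD99 being added. Reads of an excised snoRNA and of an unspliced host transcript cannot be told apart in these counts. The sequences of 4 box C/D members follow in GENCODE 29, 5′ to 3′, because they show the largest rises (SNORD1B, SNORD12C), the best counted rise (SNORD6) and a value that did not pass (SNORD104). Capitals mark the C box letters TGATGA and the D box letters CTGA that bind the core snoRNP proteins.
SNORD1B: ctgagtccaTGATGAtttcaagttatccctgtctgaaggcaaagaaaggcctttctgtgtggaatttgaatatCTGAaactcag
SNORD12C: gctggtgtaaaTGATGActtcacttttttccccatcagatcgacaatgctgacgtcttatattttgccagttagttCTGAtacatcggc
SNORD6: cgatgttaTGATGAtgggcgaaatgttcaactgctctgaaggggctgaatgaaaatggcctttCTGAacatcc
SNORD104: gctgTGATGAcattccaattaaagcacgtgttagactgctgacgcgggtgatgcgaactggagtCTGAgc

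These lie in GRCh38 at chr17:76561109-76561192 (plus strand, in SNHG16), chr20:49278940-49279028 (plus, in ZFAS1), chr11:93731502-93731574 (minus, in TAF1D) and chr17:64146083-64146152 (plus, in SNHG25). SNORD1B had 76, 44 and 58 counts in MGO and 7, 13 and 4 in Control (log2 fold change 3.45, SE 0.36, adjusted p = 1.66e-06), above the 1.81 of its host SNHG16. SNORD12C had 34, 33 and 34 counts in MGO and 3, 3 and 9 in Control (log2 fold change 3.30, SE 0.38), beside 2.80 for ZFAS1. SNORD6 had 140, 126 and 154 counts in MGO and 55, 54 and 48 in Control (log2 fold change 1.99, SE 0.18), beside 1.86 for TAF1D. In all 3 the groups did not overlap, and no difference between snoRNA and host was tested.

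SNORD104 had 111, 96 and 101 counts in MGO and 160, 173 and 146 in Control, which after scaling gave a log2 fold change of -0.07 (SE 0.16, adjusted p = 0.704). It was 0.11 (adjusted p = 0.55) with upper quartile scaling, but passed as lowered by library size alone (-0.59, adjusted p = 0.00549) and once the length trend was removed (-0.51, adjusted p = 0.00652). Its host SNHG25 was raised by 1.75. SNORD99 had a log2 fold change of 0.46 (SE 0.24, adjusted p = 0.0945), -0.07 with library size alone and 0.63 with upper quartile scaling, where it passed as raised (adjusted p = 0.03), while its host SNHG12 was raised by 2.31. The box H/ACA genes with a test were all raised. SNORA73B in SNHG3 had a log2 fold change of 2.04 (SE 0.33), SNORA71B in SNHG17 had one of 1.47 (SE 0.16), and SNORA74A in SNHG4 had one of 1.31 (SE 0.50, adjusted p = 0.0307), against the fall of its host. SNORA73B had 172, 552 and 292 counts in MGO and 88, 161 and 122 in Control, with MGO replicate 2 far above the others. SNORA74A rested on 80 counts in all, 29 of them in MGO replicate 2. SNORD93 in SNHG26 had one of 1.01 (SE 0.33) on 85 counts.

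Host genes often share a start region with a coding gene, so the coding neighbours were read from the same fit. Of 27 tested coding genes that overlap a tested member or start within 1 kb of it on the opposite strand, 12 were raised, 11 lowered and 4 did not pass (median log2 fold change 0.12, and -0.41 under library size alone). The 8 with opposite starts within 1 kb were SLC3A2, ZNFX1, MED17, TRAF7, BARD1, ACAA2, ZBTB37 and SEMA5A. Of these 6 were raised and 2 lowered. Over all coding genes tested, 40.3% were raised and 43.4% lowered, and no test of the neighbours against these shares was made.

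SLC3A2, which encodes the shared heavy chain of amino acid transporters, starts 188 bp from SNHG1. It had 569 ± 22.3 CPM in MGO and 78.8 ± 2.72 in Control, a log2 fold change of 2.85 (SE 0.07) beside 3.06 for SNHG1. The mediator subunit gene MED17, which starts 164 bp from the GENCODE 29 start of TAF1D (93784391), rose by 1.40 (SE 0.07) beside 1.86. In RefSeq TAF1D starts at 93741495, so this pair rests on the longer annotation. C11orf54, on the opposite strand, starts 42800 bp from the GENCODE start and close to the RefSeq one. It had a log2 fold change of -0.34 (SE 0.09), a call lost under upper quartile scaling (-0.17, adjusted p = 0.118). ZNFX1 starts 248 bp from the GENCODE 29 start of ZFAS1 (49278178), which is not the start used in the promoter window. ZNFX1 rose by 0.95 (SE 0.08), or 2.19 once the length trend was removed, beside 2.80 for the noncoding partner. The 3 pairs SNHG1 and SLC3A2, TAF1D and MED17, and ZFAS1 and ZNFX1 moved the same way, and none of the differences within a pair was tested.

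The other 5 pairs were mixed. ZBTB37, a zinc finger gene that starts 800 bp from GAS5, fell from 37.7 ± 5.49 to 10.7 ± 1.08 CPM (log2 fold change -1.81, SE 0.11) while GAS5 rose by 2.04. SEMA5A, an axon guidance gene that starts 125 bp from SNHG18, had a log2 fold change of -2.18 (SE 0.13) beside 1.22, but -0.30 (adjusted p = 0.038) once the length trend was removed. TRAF7, which starts 340 bp from SNHG19, had one of 0.42 (SE 0.07) beside 1.72, and so was also raised with its host, but its value became -0.11 by library size alone and -0.04 once the length trend was removed. BARD1, the partner of BRCA1, starts 518 bp from SNHG31 and had one of 0.50 (SE 0.08), -0.02 under library size alone and 1.4 once the length trend was removed (adjusted p = 8.09e-12), beside the fall of SNHG31. ACAA2, a mitochondrial thiolase gene 63 bp from SNHG22, rose by 0.78 (SE 0.06) where SNHG22 did not pass.

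**Figure D4:**
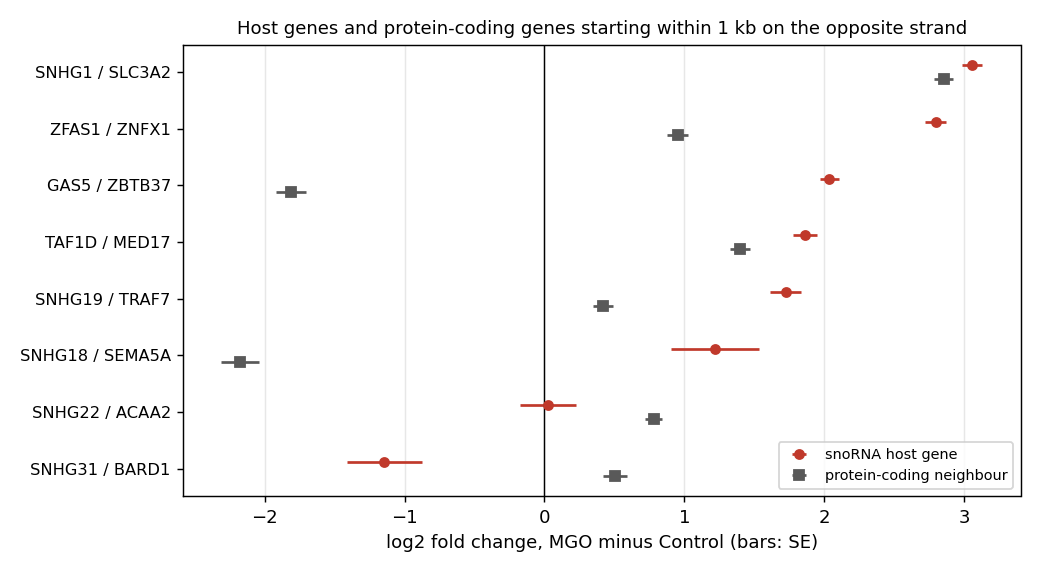
Log2 fold change (MGO minus Control; bars, 1 SE) of 8 host genes (circles) and of the coding gene that starts within 1 kb on the opposite strand (squares). SNHG1 and SLC3A2 lie close together near 3, while GAS5 and ZBTB37, and SNHG18 and SEMA5A, lie on opposite sides of 0.

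Genes that overlap a host gene gave a similar mix. EPB41L4A, antisense to EPB41L4A-AS1, had a log2 fold change of 0.00 (SE 0.12, adjusted p = 0.987) while its antisense partner rose by 3.31. Its value passed in opposite directions under 2 alternatives, at -0.52 by library size alone (adjusted p = 0.00276) and 1.17 once the length trend was removed (adjusted p = 3.93e-08). GAS5-AS1, antisense to GAS5, had one of -1.39 (SE 0.14). RCC1, which overlaps SNHG3 on the same strand, had one of 0.34 (SE 0.06), and -0.19 under library size alone, and SEC14L1, on the strand of SNHG20, had one of -0.73 (SE 0.07), or -0.17 once the length trend was removed. Since no source used here gives the strand setting of the counting, values of such overlapping genes are uncertain. RCC1 and SEC14L1 share the strand of their hosts, so no strand setting would separate their reads from those of the hosts.

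Transcripts known as NMD targets, a class that includes the spliced RNA of several hosts, were read next. Of 15 listed targets that are not host genes, 14 were raised and 1 did not pass, with a median log2 fold change of 1.98. ATF3 (4.24, SE 0.08) and DDIT3 (3.52, SE 0.07), both stress-induced transcription factors, had the largest rises, and ARFRP1, which did not pass, had 0.10 (SE 0.08, adjusted p = 0.282). Several of these genes are also targets of the integrated stress response. Of 23 tested NMD factors, 8 were raised and 14 lowered (median -0.36), and the median turned to 0.10 with the length, span and GC trend removed (11 raised, 7 lowered). The kinase SMG1 fell by 2.48 (SE 0.14) and the endonuclease SMG6 by 1.96 (SE 0.07), both also lowered with that trend removed or by library size alone. The exon junction proteins MAGOHB and MAGOH rose by 1.71 and 1.62 (SE 0.07 and 0.08).

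Proteins that bind and assemble the hosted snoRNAs moved mostly upward. All 6 tested core snoRNP proteins were raised (median 1.41), among them SNU13 (log2 fold change 1.80, SE 0.07) and NOP56 (1.64, SE 0.07), and under library size alone 5 of the 6 passed. FBL and NOP10 had 7 and 1 counts in all and were not tested. Of 10 assembly factors 7 were raised and 3 lowered (median 0.74). PIH1D1 and NUFIP1 rose by 1.68 and 1.41 (SE 0.07 for each), while RPAP3 and SHQ1 fell by 0.43 and 0.42 (SE 0.08 and 0.07). SHQ1 no longer passed with the length trend removed (-0.07).

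TAF1D works with the other factors of the polymerase I start complex, and of 6 such genes 4 were raised and 2 lowered. RRN3 (log2 fold change 2.04, SE 0.20, under 1 CPM) and TAF1A (1.57, SE 0.09) rose, and UBTF and TAF1C fell by 0.60 and 0.45 (SE 0.06 and 0.07). Coding genes that host snoRNAs completed the comparison. All 18 tested ribosomal protein hosts were raised (median 1.82), with RPL13 at 2.06 (SE 0.09) and RPL13A at 2.02 (SE 0.08). RPL7A, RPS2 and RPS3A had 36, 70 and 9 counts in all and were not tested. Of 17 other listed coding hosts with a test 13 were raised and 2 lowered (median 0.47), but 7 were raised and 7 lowered under library size alone (median -0.05). EEF1B2, with 3 counts in all, was not tested. EIF4A1 and EIF4A2, translation initiation helicases, rose by 2.51 and 2.06 (SE 0.14 and 0.08). PPAN fell by 0.53 (SE 0.08) and NCL by 0.34 (SE 0.07), where NCL had 0.19 with the length trend removed and did not pass under upper quartile scaling (-0.17). Of the 143 tested coding genes with a snoRNA gene inside by annotation, members aside, 80 were raised and 50 lowered (median 0.35, and -0.17 under library size alone), beside 28 of 31 for the named hosts. Other long noncoding genes with a snoRNA gene inside numbered 9, of which 3 were tested. All 3 were raised (median 1.18), and 2 were raised and 0 lowered under library size alone.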

How the data were processed

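PolyA RNA of HEK293T cells was sequenced in 3 libraries labelled MGO and 3 labelled Control. The values are raw counts per gene as deposited by the authors. The submitters' processing notes name the aligner STAR 2.7.0a, the counter featureCounts 2.0.6, SAMtools 1.19.2, the trimming and quality tools Trim Galore 0.6.10 and FastQC 0.12.0, DESeq2 1.42.0 and the build hg38. No source used here gives the annotation, the strand setting or how reads matching several places were handled, so values of overlapping genes and of genes with close copies are uncertain.

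The test was edgeR 4.0.16 in R 4.3.3 (filter on low counts with filterByExpr, TMM scaling, quasi-likelihood test of MGO against Control, Benjamini-Hochberg adjustment over the 23109 genes tested, threshold 0.05). The same steps were tested on simulated data. Of 63643 rows, 21558 had no count. SE was derived from the log2 fold change and the F statistic, and CPM is given as mean ± SD (n = 3). Totals were 128270160 to 138680220 counts in MGO and 117427883 to 157639431 in Control libraries. Libraries of a group were compared in pairs, and no pair agreed within sampling noise (lowest chi-square per degree of freedom 3.51), so each was kept as 1 replicate.

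Coordinates, gene types and median transcript lengths come from GENCODE 29 (GRCh38, the assembly of hg38), which matched 56881 rows. Promoters and hosted snoRNA genes come from RefSeq (GRCh38.p14), whose table of snoRNAs was matched by position without strand. Members and lists were chosen with earlier results of these data known. Every tested member is named, those with a mean of at least 1 CPM with each library's value, and from each related list up to 2 raised genes of highest and up to 2 lowered genes of lowest log2 fold change. Promoter sequences were not used here for SNHG6, SNHG9, SNHG15 and SNHG25. The alternatives were RLE, upper quartile and library size scaling, other filters, DESeq2 1.42.0, limma-voom (limma 3.58.1), robust dispersions, a replicate block, removal of the trend on length, span and GC content (known for 94.3% of genes tested) and leaving out each library.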

Additional observations from a re-analysis of the deposited data

How the results depend on the processing

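Over 491 values of single members under 16 alternatives, 483 kept direction and side of the threshold. SNHG22, which did not pass, turned to -0.50 with library size alone, -0.00855 with no filter, -0.39 with the length, span and GC trend removed, -0.00542 without MGO replicate 2, -0.0486 without Control replicate 2 and -0.0351 without Control replicate 3. SNHG18 (0.69 with library size alone) and SNHG26 (0.14 with the trend removed) no longer passed. Raised genes in the whole table numbered 5673 with library size alone in place of 8964. Lowered members numbered 1 with a filter of 1 CPM in 3 libraries, which left SNHG31 untested. The causes were not tested, except that this filter tests fewer genes.

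Leaving out each library gave 8684 to 9204 raised and 9062 to 9706 lowered genes, and 28 raised and 2 lowered members each time, with a median of 1.63 to 1.77. With the replicate number as a block, 8869 genes were raised and 9299 lowered, with the same counts of members (28 and 2). Deviations of same-numbered libraries correlated by 0.04, 0.02 and 0.01, so the numbers were treated as names. Levels under 1 CPM (SNHG14, SNHG18, SNHG22, SNHG31) and the snoRNA rows have the widest errors.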
